A study of Homo sapiens with 10 samples.

Results

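The epidermal differentiation complex is a cluster of genes on human chromosome 1 that encode the structural proteins of the outer skin. Its late cornified envelope (LCE), small proline-rich (SPRR), fused S100 and single genes were followed here in SW620, an established line of human colon cancer cells, and in its metastatic derivatives. Members were every gene whose symbol starts with LCE or SPRR and a digit, together with FLG, FLG2, HRNR, RPTN, TCHH, TCHHL1, CRNN, IVL, LOR, SMCP, PGLYRP3 and PGLYRP4. This gave 37 of the 4713 genes in the table: 15 LCE genes, 10 SPRR genes, 7 fused S100 genes and 5 single genes. They are covered by 126 of the 56949 table rows with a listed gene. A further 3 rows list 2 genes of these families at once and were kept apart. A gene needed a row that lists it alone, so LCE3C, which appears only in such a shared row, is not among the 37.

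Cells of 3 kinds were profiled, all of them SW620 grown in DMEM culture: lung metastasis derivatives (3 arrays), liver metastasis derivatives (3 arrays) and the parental line (4 arrays). The derivatives had formed metastases in balb/c nude mice, from which the tumour cells were taken out and expanded in culture before RNA extraction. The parental line is not labelled as having passed through an animal, and the host mice lack mature T cells. The labels call the arrays of a group biological replicates but do not say whether they are separate metastases or separate cultures, so p-values measure only the spread between these samples.

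In stratified skin these genes act late in the life of a keratinocyte. Involucrin and the small proline-rich proteins are cross-linked by transglutaminases under the cell membrane, loricrin and the late cornified envelope proteins are added to them, and filaggrin bundles keratin filaments before it is broken down to moisture-binding amino acids. A colon cancer line is a simple epithelium, and cornification is not part of its normal program. The simple keratins KRT8 and KRT18 had high and similar values in all groups. KRT8 averaged 12.82 in lung, 12.77 in liver and 12.75 in parental arrays, and KRT18 averaged 11.61, 11.73 and 11.62 on the log2 scale.

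The 5 promoters printed here belong to 2 SPRR and 2 LCE genes that were higher in the lung derivatives and to FLG, which was lower. They come from RefSeq (GRCh38.p14), which gave a promoter of 250 bases before and 50 bases after the start for 33 of the 37 genes. It gave none for LCE1B, SPRR2C, SPRR2D and SPRR2E, of which all but SPRR2C were called higher in lung than in parental arrays. Capitals mark matches, on either strand, to the AP-1 motif TGANTCA and to the TATA box TATAAA.
SPRR1A (chr1:152983831-152984130, plus strand): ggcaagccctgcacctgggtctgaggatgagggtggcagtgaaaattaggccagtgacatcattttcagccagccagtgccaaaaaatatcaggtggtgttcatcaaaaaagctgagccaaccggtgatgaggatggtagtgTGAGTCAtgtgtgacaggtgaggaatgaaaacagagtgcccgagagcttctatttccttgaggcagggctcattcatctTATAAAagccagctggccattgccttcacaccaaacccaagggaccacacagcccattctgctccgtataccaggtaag
SPRR1B (chr1:153030953-153031252, plus strand): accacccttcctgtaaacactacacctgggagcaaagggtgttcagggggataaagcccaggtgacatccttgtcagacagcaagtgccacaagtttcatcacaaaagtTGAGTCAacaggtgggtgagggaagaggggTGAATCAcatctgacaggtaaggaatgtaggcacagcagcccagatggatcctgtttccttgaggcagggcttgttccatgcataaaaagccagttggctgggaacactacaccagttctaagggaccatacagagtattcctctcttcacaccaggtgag
LCE2A (chr1:152698095-152698394, plus strand): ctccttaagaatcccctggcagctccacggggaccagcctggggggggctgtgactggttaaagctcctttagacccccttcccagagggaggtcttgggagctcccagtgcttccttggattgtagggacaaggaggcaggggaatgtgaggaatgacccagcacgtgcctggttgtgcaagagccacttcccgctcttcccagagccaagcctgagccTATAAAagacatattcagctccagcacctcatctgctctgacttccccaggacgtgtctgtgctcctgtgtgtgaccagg
LCE2B (chr1:152685873-152686172, plus strand): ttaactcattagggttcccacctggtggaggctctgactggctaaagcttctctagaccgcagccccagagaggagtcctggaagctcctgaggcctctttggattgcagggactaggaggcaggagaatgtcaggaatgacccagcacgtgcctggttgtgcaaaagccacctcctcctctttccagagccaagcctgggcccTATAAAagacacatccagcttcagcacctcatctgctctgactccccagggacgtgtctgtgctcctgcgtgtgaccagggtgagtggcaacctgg
FLG (chr1:152325190-152325489, minus strand): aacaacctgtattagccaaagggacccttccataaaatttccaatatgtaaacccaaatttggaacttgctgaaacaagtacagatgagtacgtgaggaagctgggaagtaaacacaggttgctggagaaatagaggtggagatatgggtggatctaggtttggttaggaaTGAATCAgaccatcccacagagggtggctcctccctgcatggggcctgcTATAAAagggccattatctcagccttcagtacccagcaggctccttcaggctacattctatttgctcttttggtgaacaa

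SPRR1A holds 1 match to the AP-1 motif, whose first base lies at position -108 from the start, and SPRR1B holds 2. The promoters of LCE2A and LCE2B hold none and have a TATA box only, while FLG holds both, the AP-1 match at position -79. Aligned end to end, the LCE2A and LCE2B promoters were identical in 73.5% of the aligned columns, those of SPRR1A and SPRR1B in 65.1%, and those of LCE2A and SPRR1A in 48.8%. Over the complex, the AP-1 motif was found in 13 of 33 promoters (39.4%), against 7.71% of 35116 promoters of the same length. By family it was found in 5 of 7 SPRR promoters, 6 of 7 fused S100 promoters, 2 of 5 single genes and 0 of 14 LCE promoters. The TATA box was found in 19 of 33 promoters (57.6%, against 11.5% of all), and the grainyhead-like motif AACNGGTT in 3 of 33 (9.09%, against 1.73% of all). In the 5 promoters shown no matches to different motifs overlap. A match describes the sequence and is neither a bound site nor a cause of the values below.

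All values are log2 expression values per array. The value of a gene is the mean of its rows, and a difference was called at an adjusted p under 0.05 in a limma fit of all 4713 genes. Array medians were 8.52 to 8.55 in lung, 8.57 to 8.59 in liver and 8.56 to 8.60 in parental arrays. The 37 gene means over all arrays lay between 4.89 and 9.95, and 9 of the 37 (7 LCE and 2 SPRR genes, no fused S100 or single gene) lay above the median gene of the table, 8.30. Of the members called in that fit in any comparison, LCE2A (9.54) alone lay above that median. Values of different genes come from different probes. Apart from their place above or below that median, genes are not ranked against each other by level. In these bulk samples, fewer cells of a type and less RNA per cell cannot be told apart.

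**Figure D1:**
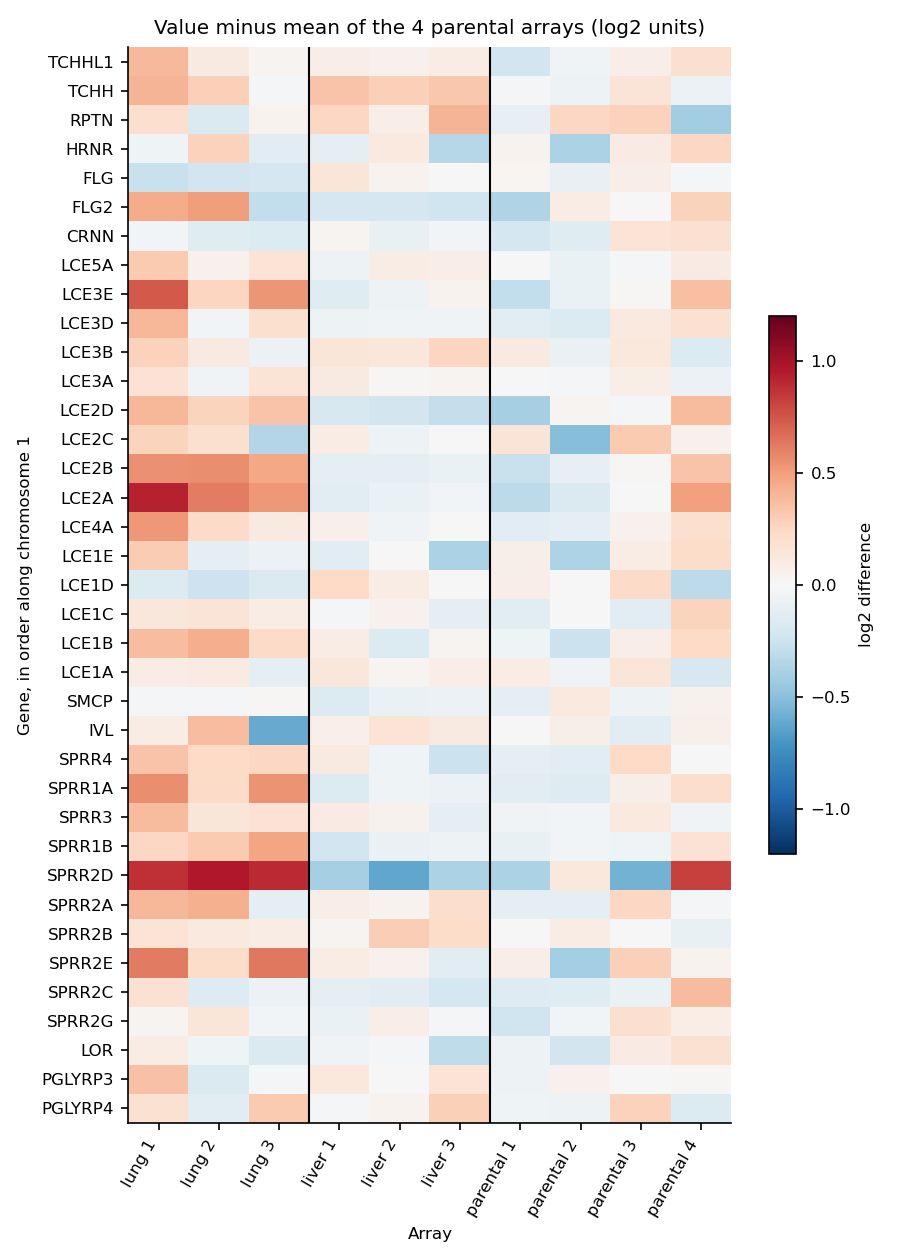
Log2 value of each of the 37 genes (down the page, in chromosomal order) in each of the 10 arrays (across, lung, liver, parental), minus the mean of the 4 parental arrays of that gene. SPRR2D, LCE2A, LCE2B and LCE3E are raised in the 3 lung arrays and in parental array 4.

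Lung metastasis derivatives had higher values than parental cells for 9 of the 37 genes and a lower value for 1 gene. The 9 were SPRR1A, SPRR1B, SPRR2D, SPRR2E, SPRR3, LCE1B, LCE2A, LCE2B and LCE3E, and the lower gene was FLG. As a share, 24.3% of the members were called higher, against 12.9% of all genes. The lower share was 1 of 37 genes, against 17.3% of all genes. In either direction 27% of the members were called, against 30.1% of all genes. Lung arrays lay fully above parental arrays in 7 of 37 members, against 604 of 4713 genes. They lay fully below in 1 member, against 917 genes. The median difference was 0.13 over the members and -0.01 over all genes, and 30 of the 37 members had a positive difference, against 2305 of 4713 genes. Parental array 4, described below with its values, lay close to the lung arrays in most of the 9 raised genes.

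The SPRR family, cross-bridging proteins of the envelope that are also known as stress-response genes in epithelia, held 5 of the 9. SPRR2D had values of 7.54, 7.62 and 7.56 in lung arrays 1 to 3, of 6.27, 6.04 and 6.29 in the liver arrays and of 6.28, 6.79, 6.10 and 7.48 in parental arrays 1 to 4. Every lung array lay above every parental array, but parental array 4 lay close below them and far above parental arrays 1 and 3. The difference between lung and parental means was 0.91 (SE 0.26, 1.88-fold, adjusted p = 0.0225). It lost its call without parental array 1 (adjusted p = 0.0639) or any of the lung arrays (0.0517 to 0.0613), and without parental array 4 it was 1.18.

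SPRR1A, a precursor of the cornified envelope, had values of 8.47, 8.14 and 8.45 in lung arrays, 7.75, 7.86 and 7.84 in liver arrays and 7.79, 7.76, 7.98 and 8.12 in parental arrays. The lowest lung array lay just above the highest parental array, and the difference was 0.44 (SE 0.11, 1.36-fold, adjusted p = 0.0117). SPRR1B, which makes a closely related protein, had values of 7.53, 7.59 and 7.75 in lung, 7.05, 7.20 and 7.22 in liver and 7.19, 7.24, 7.23 and 7.45 in parental arrays. Lung and parental groups did not overlap, and the difference was 0.34 (SE 0.08, 1.27-fold, adjusted p = 0.0126). The call of SPRR1A was lost without lung array 1 (adjusted p = 0.0512), and that of SPRR1B when a gene was given the median of its rows (0.788) or its brightest row (0.21).

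SPRR2E had values of 6.40, 6.0 and 6.40 in lung arrays, 5.86, 5.82 and 5.64 in liver arrays and 5.85, 5.36, 6.06 and 5.81 in parental arrays. One lung array overlapped the parental range, whose top was parental array 3 and not array 4, and the difference was 0.49 (SE 0.15, adjusted p = 0.0313). SPRR3, an SPRR protein of moist squamous linings such as the oesophagus, had values of 6.71, 6.47 and 6.50 in lung, 6.42, 6.37 and 6.21 in liver and 6.28, 6.29, 6.44 and 6.29 in parental arrays. Its lung arrays lay above all parental arrays by a small step, with a difference of 0.23 (SE 0.08, adjusted p = 0.0484). Neither call was stable: of 20 alternatives SPRR2E lost it in 8 and SPRR3 in 14. SPRR2E lost it without parental array 1 or 2 or lung array 1 or 3 (adjusted p of 0.0566 to 0.114). SPRR3 lost it without parental array 1, 2 or 4, liver array 1 or 2 or lung array 1 or 3 (0.057 to 0.191).

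The other 5 SPRR genes were not called. Their lung minus parental differences ran from -0.01 for SPRR2C, which is annotated as a pseudogene, to 0.28 for SPRR4 (adjusted p = 0.0686). The SPRR2 genes are near-identical copies whose probes can pick up each other's transcripts, so the separate values of SPRR2A to SPRR2G are uncertain. The row shared by SPRR2A and SPRR2B was at 5.37, 5.84 and 5.72 in lung, 5.45, 5.40 and 5.86 in liver and 6.15, 6.68, 5.94 and 6.06 in parental arrays. It was lower in lung by 0.57 without a call, opposite in sign to the mean difference of either gene, although 1 of the 3 rows of SPRR2A was also lower in lung (-0.37).

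**Figure D2:**
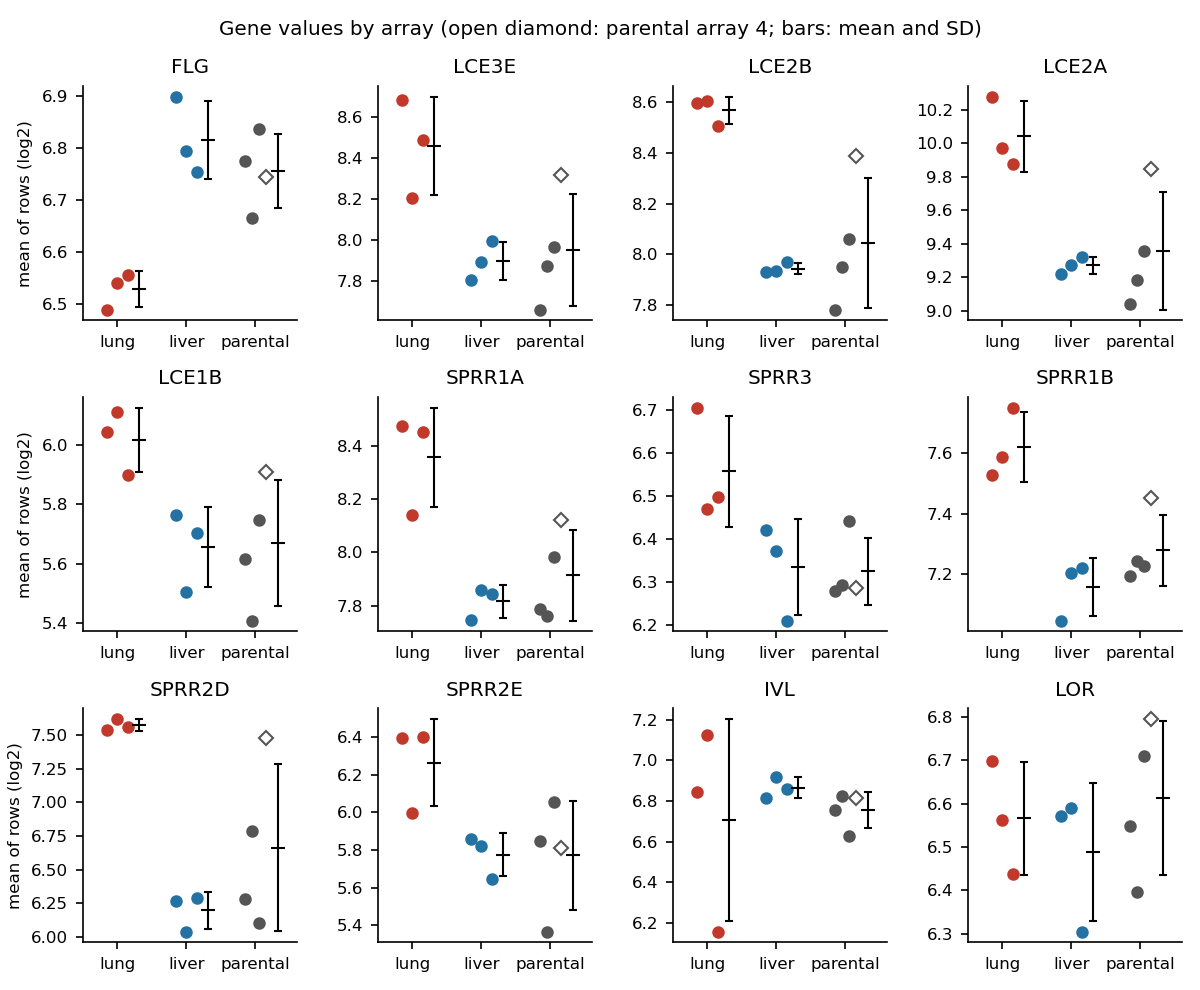
Log2 gene values (vertical axis, own scale per panel) in lung, liver and parental arrays for the 10 genes called between lung and parental arrays and for IVL and LOR. Filled points are single arrays, the open diamond is parental array 4, and the bars give the group mean and SD; in SPRR2D the diamond sits at 7.48, beside lung values of 7.54 to 7.62.

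The late cornified envelope genes, which encode small proteins added to the envelope late in differentiation, held the other 4. LCE2A had values of 10.28, 9.97 and 9.87 in lung arrays, 9.22, 9.27 and 9.32 in liver arrays and 9.04, 9.19, 9.36 and 9.84 in parental arrays. The 3 lung arrays were above every other array, with parental array 4 close below the lowest of them. The difference between lung and parental means was 0.68 (SE 0.16, 1.61-fold, adjusted p = 0.0118), and its call was lost without lung array 1 (adjusted p = 0.0538).

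LCE2B, next to LCE2A in the order of the members, had values of 8.60, 8.60 and 8.51 in lung, 7.93, 7.94 and 7.97 in liver and 7.78, 7.95, 8.06 and 8.39 in parental arrays. Lung and parental arrays did not overlap, and at 0.52 (SE 0.11, 1.44-fold) it had the smallest adjusted p of the members, 0.00821. It rests on 1 row, and its call held without any single array. LCE3E had values of 8.69, 8.21 and 8.49 in lung, 7.81, 7.89 and 8.0 in liver and 7.66, 7.88, 7.96 and 8.32 in parental arrays. Here lung array 2 lay below parental array 4, and the difference was 0.51 (SE 0.15, adjusted p = 0.0248). It lost its call in 6 of 20 alternatives, among them without parental array 1 or 2 or lung array 1 or 3 (adjusted p of 0.0617 to 0.106).

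LCE1B was called with 6.04, 6.11 and 5.90 in lung arrays, against 5.62, 5.41, 5.75 and 5.91 in parental arrays, a difference of 0.35 (SE 0.11, adjusted p = 0.0388). It lost its call in 9 of 20 alternatives, among them without parental array 1 or 2, liver array 3 or lung array 1 or 2 (adjusted p of 0.0528 to 0.107). Its lowest lung array overlapped parental array 4. The remaining 11 LCE genes had differences from -0.19 for LCE1D to 0.33 for LCE2D and were not called. Over the family, 14 of 15 differences were positive, with a median of 0.17, as were 9 of 10 in the SPRR family, with a median of 0.26. Members of the LCE family are close copies too, and 1 row is shared by LCE3C and LCE5A. It differed between lung and parental arrays by 0.16, without a call.

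The fused S100 genes, long repeat proteins that bind keratin filaments or the envelope, held 1 called gene of 7, and it was lower. FLG, the filaggrin gene, had lower values in the lung derivatives, with 6.49, 6.54 and 6.55 in lung arrays, against 6.90, 6.79 and 6.75 in liver arrays and 6.78, 6.66, 6.84 and 6.74 in parental arrays. Every lung array lay below every liver and parental array. The lung minus parental difference was -0.23 (SE 0.06, 1.17-fold, adjusted p = 0.0213). Against parental array 4 alone, with the split described below as a term, it was -0.22 and not called (adjusted p = 0.185). The call was also lost without parental array 1 (adjusted p = 0.0544) or lung array 1 (0.0725), with each array centred on its median (0.0512) and with the median (0.06) or the brightest (0.224) of its 9 rows. The other 6 genes ran from -0.11 for CRNN (cornulin) to 0.23 for TCHH (trichohyalin, a protein of hair follicles), none of them called.

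Involucrin and loricrin, the best known envelope proteins, were not called. IVL had values of 6.84, 7.12 and 6.16 in lung arrays, 6.82, 6.92 and 6.86 in liver arrays and 6.76, 6.82, 6.63 and 6.82 in parental arrays. The lung arrays spread on both sides of the parental ones (difference -0.05, SE 0.17, adjusted p = 0.847; 0.23 without lung array 3). LOR had values of 6.70, 6.56 and 6.44 in lung arrays, 6.57, 6.59 and 6.30 in liver arrays and 6.55, 6.40, 6.71 and 6.80 in parental arrays, groups that overlap (difference -0.05, SE 0.11, adjusted p = 0.762). SMCP, a sperm mitochondrial capsule gene that lies in the complex, and PGLYRP3 and PGLYRP4, peptidoglycan recognition proteins, differed by 0.00 to 0.13 in size without a call.

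Parental array 4 stood apart from parental arrays 1 to 3 and near the lung arrays, a split known from earlier results of these data and given by no label. It was the highest parental array in 19 of the 37 genes, and its median difference from the mean of arrays 1 to 3 was 0.13 over the members and -0.02 over all genes. Among the 9 genes raised in lung it was the highest parental array in 7. All 3 lung arrays lay above it in 7 of the 9, and the lung mean exceeded it by 0.09 (SPRR2D) to 0.45 (SPRR2E). Over all 37 members the lung mean exceeded parental array 4 by a median of 0.09, and over all genes the median was -0.00.

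With the split (lung arrays and parental array 4, against the other 6) as a term in the limma model, the lung comparison rests on 1 parental array. No member was then called, against 5.75% of all genes in either direction. At an unadjusted p under 0.05 there were 5 of 37 members, against 1110 of 4713 genes. Without parental array 4, 13 of 37 members were called, 11 higher and 2 lower, against 41.4% of all genes. The differences were then 1.18 for SPRR2D, 0.85 for LCE2A, 0.64 for LCE2B and 0.63 for LCE3E. LCE2D (0.46), LCE4A (0.35) and LCE1C (0.21) joined the higher genes, and LCE1D (-0.30) joined the lower ones. FLG, SPRR3 and SPRR2E differed from parental array 4 by about as much as from the parental mean (-0.22, 0.27 and 0.45), without a call. The count of 10 called members was 4 without parental array 1, 6 without parental array 2 and 2 without lung array 1.

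The per-array medians of the members, each gene centred on its own mean, were 0.25, 0.08 and 0.00 in lung arrays, -0.05, -0.04 and -0.07 in liver arrays and -0.15, -0.12, 0.00 and 0.09 in parental arrays. Within the LCE family they were 0.27, 0.12 and 0.10 in lung and -0.15, -0.19, -0.02 and 0.14 in parental arrays. In the SPRR family they were 0.29, 0.13 and 0.14 in lung and -0.16, -0.10, 0.01 and 0.00 in parental arrays. By these medians parental array 4 lay within the range of the lung arrays in the LCE family. In the SPRR family it lay within that of the other parental arrays. The SPRR family mean, however, was highest in parental array 4 (7.18, against 6.91, 6.94 and 7.07 in parental arrays 1 to 3). The members' SD had a median of 0.171 in lung, 0.0778 in liver and 0.179 in parental arrays.

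**Figure D3:**
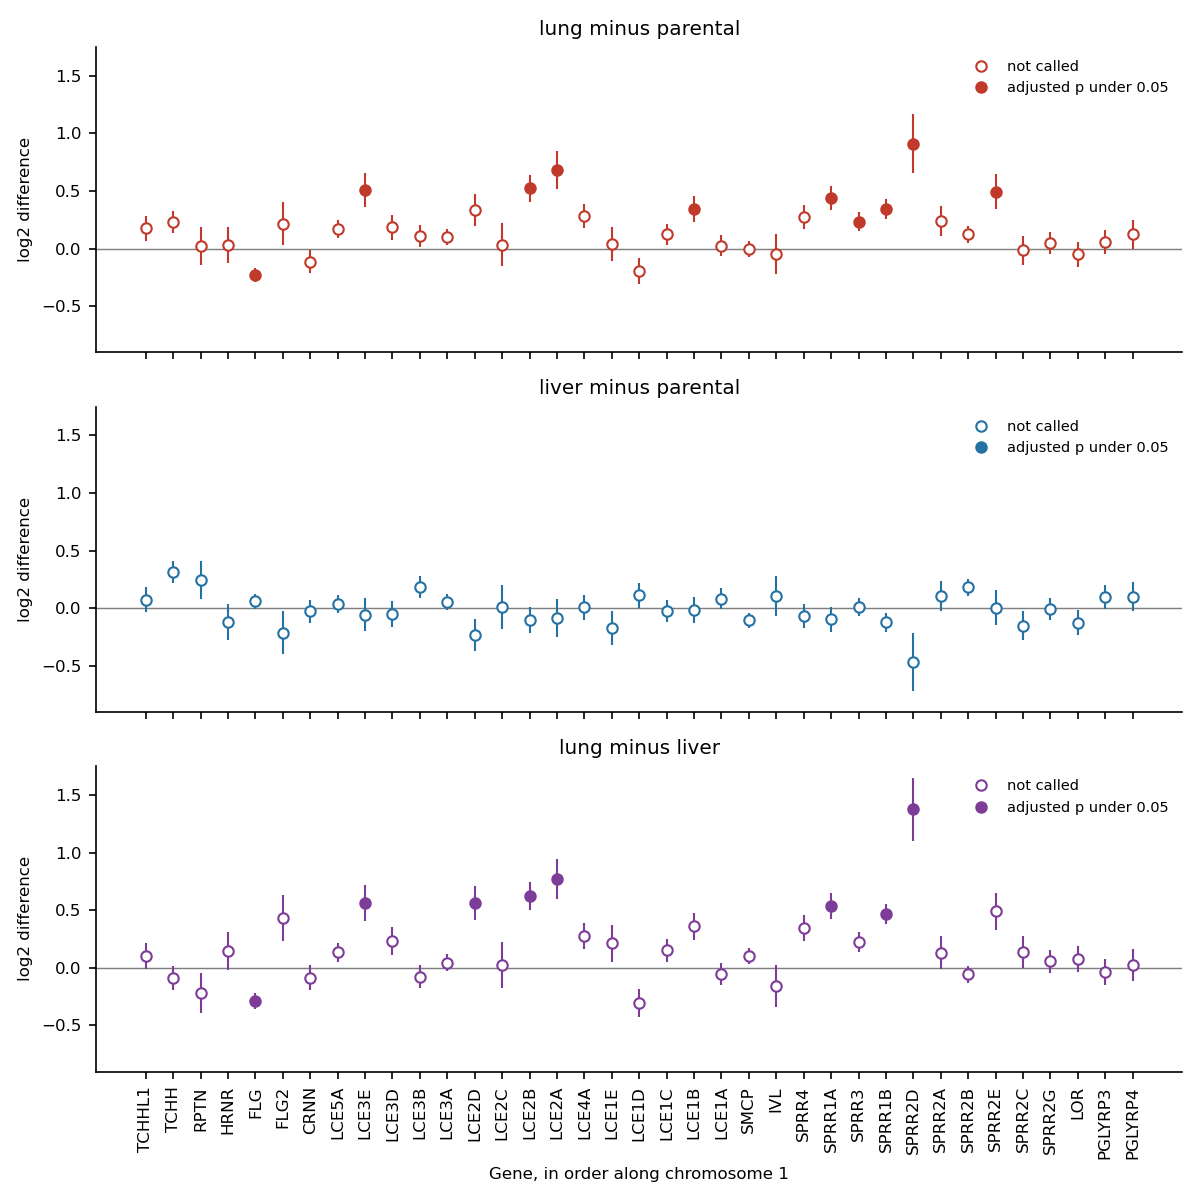
Difference of mean log2 values (points, with the SE of the fit) for the 37 genes in chromosomal order, for lung minus parental, liver minus parental and lung minus liver. Filled points were called; they are 10 genes in the upper panel, none in the middle panel and 8 in the lower panel.

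Between liver metastasis derivatives and parental cells none of the 37 genes was called by the limma test. The count was 0, with 2 genes at an unadjusted p under 0.05 (5.41%, against 18.5% of all genes), while 4.33% of all genes were called higher and 3.5% lower. The median difference was -0.01 over the members and 0.01 over all genes. TCHH came closest, with 6.14, 6.09 and 6.13 in liver arrays, against 5.77, 5.74, 5.96 and 5.73 in parental arrays. The groups did not overlap, and the difference was 0.32 (SE 0.10, adjusted p = 0.0782); it was called without parental array 3 (0.37, adjusted p = 0.0492) or lung array 3 (adjusted p = 0.019).

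SPRR2D had the largest liver difference in size, -0.47 (adjusted p = 0.388), where parental arrays 2 and 4 lay highest, at 6.79 and 7.48. RPTN (repetin) differed by 0.25, LCE2D by -0.23, FLG2 by -0.21 and LCE3B by 0.18, all uncalled. FLG differed by 0.06, IVL by 0.11 and LOR by -0.12. By family, the medians were -0.01 for LCE, -0.04 for SPRR, 0.06 for the fused S100 genes and 0.09 for the single genes.

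Between the derivatives, lung arrays were higher than liver arrays for 7 of the 37 genes and lower for 1. The higher share was 18.9% of the members, against 8.02% of all genes; the lower gene was FLG, where 11.9% of all genes were called lower. In either direction 21.6% of the members were called, near the 19.9% of all genes. Called higher were SPRR2D, LCE2A, LCE2B, LCE2D, LCE3E, SPRR1A and SPRR1B. This comparison uses the same lung arrays as the one with parental cells, so the values are set side by side and are not independent: 7 genes were called in both. The median difference was 0.14 over the members and -0.02 over all genes.

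SPRR2D differed by 1.38 (SE 0.27, 2.6-fold, adjusted p = 0.0134), with liver values of 6.04 to 6.29, all more than 1 unit below the lung values. LCE2A differed by 0.77 (SE 0.18, 1.7-fold, adjusted p = 0.0179), LCE2B by 0.62 (SE 0.12, adjusted p = 0.0131) and LCE3E by 0.56 (SE 0.16, adjusted p = 0.031). In all of these the lung and liver arrays were fully separated. Lung arrays lay fully above liver arrays in 15 of 37 members, against 889 of 4713 genes. SPRR1A differed by 0.54 (SE 0.11, adjusted p = 0.0156), SPRR1B by 0.47 (SE 0.09, adjusted p = 0.0129) and FLG by -0.29 (SE 0.07, adjusted p = 0.0197).

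LCE2D was called here and not between lung and parental arrays (0.33, adjusted p = 0.0884), with 7.63, 7.50 and 7.57 in lung arrays, against 7.04, 7.01 and 6.94 in liver arrays. Parental arrays had 6.84, 7.26, 7.21 and 7.61, so both derivatives overlap the parental range. The lung minus liver difference was 0.57 (SE 0.15, adjusted p = 0.0255). SPRR4 (0.34, adjusted p = 0.0523), SPRR2E (0.49, 0.0538) and LCE1B (0.36, 0.0553) stayed just outside the threshold.

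All liver arrays lie on the other side of the split from the lung arrays. When the split is a term, parental array 4 alone links the 2 sides, so a lack of calls cannot decide the comparison. With the split as a term, 0 of 37 members were called between lung and liver, against 0.0849% of all genes. At an unadjusted p under 0.05 there were 2 of 37 members, against 454 of 4713 genes. Without parental array 4, which then enters only through the spread, 12 members were called, against 32.3% of all genes. The count of 8 was 4 without liver array 1, 0 without liver array 2, 3 without liver array 3 and 3 without lung array 1.

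Row by row, where each row is taken as a probe set for a part of a gene, 9 of the 126 member rows were called between lung and parental arrays, 7 higher and 2 lower. Of all rows 5.15% were called higher and 7.99% lower. Between lung and liver arrays 14 member rows were called, 12 higher and 2 lower, against 5.02% and 7.61% of all rows. Between liver and parental arrays none was called, against 1.15% and 1.04% of all rows. Of the 10 genes called between lung and parental arrays, 5 had no called row, so their calls rest on the mean of rows. These row counts depend on single arrays: for lung against parental they ran from 2 to 30 when an array was left out, highest without parental array 4, and for lung against liver from 0 (without any 1 of the liver arrays) to 24 (without parental array 4).

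**Figure D4:**
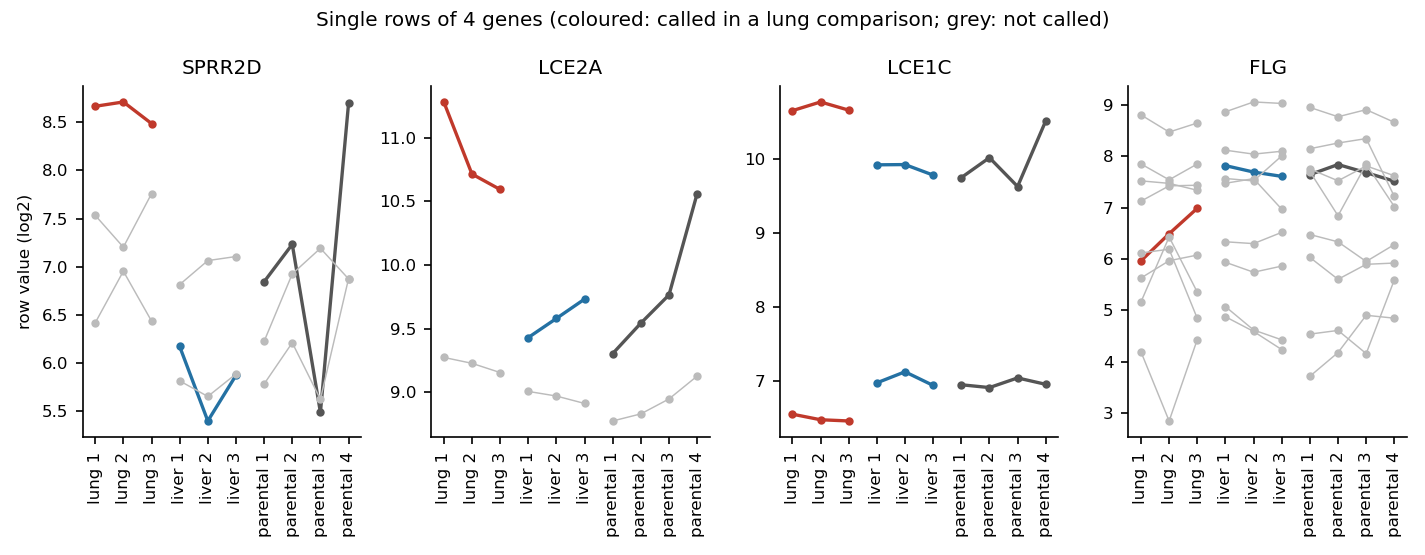
Log2 values of single rows of SPRR2D, LCE2A, LCE1C and FLG (vertical axis, own scale per panel) across the lung, liver and parental arrays; lines join the values of 1 row within a group. Coloured rows were called in a lung comparison and grey rows were not; in LCE1C 1 coloured row is higher in lung and the other lower.

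The rows of a gene did not always agree. One row of SPRR2D carried most of its change, with 8.67, 8.71 and 8.49 in lung arrays, 6.17, 5.40 and 5.87 in liver arrays and 6.84, 7.23, 5.49 and 8.70 in parental arrays. Parental array 4 equalled the lung arrays there, and the lung minus liver difference of 2.81 (SE 0.64, adjusted p = 0.0287) was called while the lung minus parental difference of 1.56 was not. All 3 rows of SPRR2D and all 3 of SPRR1A were higher in lung than in parental arrays.

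One of 2 rows of LCE2A had 11.28, 10.71 and 10.59 in lung arrays, against 9.30, 9.54, 9.76 and 10.56 in parental arrays, a called difference of 1.07 (adjusted p = 0.0402). The 2 rows of LCE1C went opposite ways: one was lower in lung (6.56, 6.48 and 6.46, against 6.95, 6.92, 7.05 and 6.96 in parental arrays) by 0.47 (adjusted p = 0.0144), the other higher by 0.72 (adjusted p = 0.0397). LCE1C as a gene therefore differed by only 0.12. The lower row differed from parental array 4 by -0.46, while the higher row, at 10.52 in that array, differed from it by 0.18.

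In FLG 1 of 9 rows was called. That row had 5.97, 6.49 and 6.99 in lung arrays, 7.82, 7.70 and 7.61 in liver arrays and 7.65, 7.84, 7.68 and 7.52 in parental arrays. The lung minus parental difference was -1.19 (SE 0.21, adjusted p = 0.011) and the lung arrays themselves spread widely, yet none reached the lowest parental array. Of the 9 rows, 7 were lower in lung and 2 were higher, with differences from -1.19 to 0.92. PGLYRP3, uncalled as a gene, had 1 of 7 rows called, with 6.83, 6.26 and 5.98 in lung arrays, against 5.28, 5.5, 5.12 and 5.68 in parental arrays (0.96, adjusted p = 0.0353).

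Other genes of the complex, mostly S100 calcium-binding genes at its edge, were given the same test. Of 15 measured, 4 were called higher in lung than in parental arrays and none lower: S100A3 (0.57), S100A12 (0.32), S100A11 (0.23) and S100A5 (0.21). Called higher were 26.7% of the list, against 12.9% of all genes. In either direction the shares were 26.7% of the list and 30.1% of all genes. S100A3 was also higher in liver than in parental arrays (0.57), the 1 such call, and LELP1, a late cornified envelope-like gene, was the 1 called between lung and liver (0.57 higher in lung).

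Genes that work with the complex during cornification include keratins, plakophilin, connexins, peptidylarginine deiminases, lipases and proteases. Between lung and parental arrays 29.2% of the 24 measured were called higher, against 12.9% of all genes. In either direction 33.3% were called, near the 30.1% of all genes. These were 8 genes, 7 higher and 1 lower. The largest of them was KRT5, the keratin of basal squamous cells, which averaged 9.53 ± 0.374 in lung, 9.51 ± 0.055 in liver and 7.20 ± 0.182 in parental arrays (SD, n = 3, 3 and 4). KRT5 (2.32 in lung, 2.31 in liver), PKP1 (0.62 and 0.50) and KRT6A (0.55 and 0.94) were called higher in both derivatives, 2 comparisons that share the parental arrays. KRT80 was lower in lung than in parental arrays by 0.57 on the log2 scale. In liver arrays 4 of 24 were called, all higher (16.7%, against 4.33% of all genes called higher), KRT2 (0.35) being the fourth. Between lung and liver 2 were called, both lower in lung: KRT80 (-0.43) and KRT77 (-0.29). That is 8.33% of the list, against 11.9% of all genes called lower.

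Regulators known from epidermal differentiation were called in 6 of 10 cases between lung and parental arrays, 3 in each direction, against 30.1% of all genes in either direction. RARG, a retinoic acid receptor, was higher in both derivatives (0.43 in lung and 0.35 in liver). OVOL1 (0.44) and ELF5 (0.41) were higher in lung. JUN, an AP-1 subunit, averaged 8.80 ± 0.0836 in lung, 8.96 ± 0.0567 in liver and 9.44 ± 0.196 in parental arrays (SD), and it was called lower in both derivatives (-0.64 and -0.48). VDR, the vitamin D receptor, was lower in lung (-0.60), and ELF3 was lower in lung (-0.25) and in liver (-0.51), where EHF (-0.47) was also lower. Between lung and liver, EHF (0.26) and ELF3 (0.26) were higher in lung, and VDR (-0.46) and FOSL1 (-0.31), another AP-1 subunit, were lower. These are 4 of 10 regulators, against 19.9% of all genes in either direction. Between liver and parental arrays 4 of 10 were called, against 7.83% of all genes.

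Markers of other cells moved in part with the lung samples, and some also with the liver samples. Leukocyte genes were higher in lung than in parental arrays in 5 of 9 cases, where 12.9% of all genes were, with mean list levels of 6.70 to 6.75 in lung, 6.51 to 6.52 in liver and 6.24 to 6.40 in parental arrays. Lung epithelial genes were higher in 3 of 6 cases (PDPN, SFTPA1 and SFTPA2), with levels of 7.49 to 7.61 in lung, 7.34 to 7.46 in liver and 7.26 to 7.42 in parental arrays. Squamous genes were higher in 3 of 11 cases in each derivative, with levels of 7.60 to 7.65 in lung, 7.64 to 7.73 in liver and 7.22 to 7.33 in parental arrays. Of 7 stromal genes 2 were higher and 2 lower in lung, of 5 endothelial genes 1 was higher, of 10 hepatocyte genes 1 was lower, and of 7 simple epithelial genes 1 (ELF3) was lower. None of the leukocyte, lung epithelial, stromal, endothelial and hepatocyte genes lay above the median gene of the table in its mean over all arrays. However, LYZ averaged 8.72 in lung, 8.06 in liver and 7.08 in parental arrays. LYZ (0.97) and CD4 (0.99), 2 of 9 leukocyte genes, were also called higher in liver than in parental arrays, where 4.33% of all genes were. Between lung and liver 3 of the 9 were higher in lung and CD4 was lower (-0.28), against 8.02% and 11.9% of all genes. With the array split as a term, the comparison of lung with parental cells rests on parental array 4 alone. The median lung minus parental difference was then 0.18 over the leukocyte genes and 0.09 over the lung epithelial genes. It was 0.15 over the cornification genes, -0.01 over the regulators and -0.00 over all genes. The part of these genes in the differences of the complex was not tested.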

How the data were processed

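The deposited values are log2 expression values from Affymetrix HG1.0ST arrays, made by the authors with RMA in oligo, an R package, per the submitters' processing notes; versions and the summary level are not given in the sources used here. Because RMA sets arrays to a common distribution, a change in total RNA cannot be seen, and the number of arrays limits the precision. Of 65535 rows, a spreadsheet row limit, so the table may be incomplete, 56949 list a gene and 54806 list 1 symbol. The 54806 gave 4713 genes after 602 symbols were updated through RefSeq. Every share of all genes is a share of these 4713. Genes absent from the table could not enter the shares, the related lists or the marker lists. LOR was read as LORICRIN, since the symbol is also a synonym of another gene. A gene's value was the mean of its rows with 1 symbol.

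Genes, and separately rows, were fitted with limma 3.58.1 (R 4.3.3, lmFit and eBayes) over all 10 arrays with 1 coefficient per group and no covariate, tested two-sided and adjusted by Benjamini-Hochberg over all 4713 genes or 56949 rows. The fit was tested on simulated data with a change of 1 log2 unit in lung, independent spread and no array split. That test does not bear on the calls given here, most of which are smaller changes. Members and lists were chosen with earlier results of these data known. Named genes are the members called in a comparison, its 6 largest differences, FLG, IVL and LOR, and up to 6 called genes (smallest adjusted p) of each related list; of rows, up to 6 called ones. The LCE2D, LCE4A, LCE1C and LCE1D changes without parental array 4, SPRR4 and the ends of family ranges were named after their values were seen. Alternatives were the median or brightest row, shared rows counted to each gene, identical rows counted once (chosen after seeing the data), repeated quantile normalization, median centring, a filter on dim genes, the 2 groups alone, the array split, the replicate number as a block, a mean-variance trend and leaving out each array.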

Additional observations from a re-analysis of the deposited data

Results flagged for a closer look

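For 8 genes the change from parental cells differed between the 2 kinds of derivative by the limma test of lung minus liver: SPRR2D (1.38), LCE2A (0.77), LCE2B (0.62), LCE2D (0.57), LCE3E (0.56), SPRR1A (0.54), SPRR1B (0.47) and FLG (-0.29). Lung and liver arrays did not overlap in these genes. Over all 4713 genes, lung arrays lay fully above liver arrays in 889 and fully below them in 1281. In either direction 21.6% of the members were called, against 19.9% of all genes. With the split of parental array 4 as a term, the comparison rests on that 1 array and cannot decide on these 8 genes. Their differences were then 0.06 (LCE2D) to 0.29 (SPRR2D) in the higher genes and -0.27 in FLG. The part of the split in them was not tested further.

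Among the 4 parental arrays, 2 of 37 genes had 1 array far from the others by Dixon's ratio of gap to range, which chance gives in about 1 of 20 groups. The ratio was 0.913 for SPRR3, where parental array 3 was at 6.44 and the others at 6.28 to 6.29. It was 0.852 for SPRR2C, where parental array 4 was at 10.38 and the others at 9.85 to 9.93.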

How the results depend on the processing

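The count of members called between lung and parental arrays (10) was 2 with the filter on dim genes, which leaves fewer genes, 5 with the 2 groups alone, 0 with the array split as a term, and 2 to 13 when an array was left out. Lung against liver (8) gave 2 with the filter, 0 with the split and 0 to 12 when an array was left out; 0 came without liver array 2. Liver against parental (0) gave 1, TCHH, with the median of rows and with the 2 groups alone, and 0 to 1 when an array was left out. Of rows, lung against parental (9) gave 1 with the 2 groups alone, 0 with the split and 2 to 30 when an array was left out; lung against liver (14) gave 8 with the filter, 0 with the split and 0 to 24; liver against parental (0) gave 0 to 1. Labels share replicate numbers, but same-numbered arrays did not deviate together (correlations of -0.20 to 0.13), so the numbers were not taken as pairs; with the replicate block, 0, 13 and 11 members (liver and lung against parental, lung against liver) and 25 rows in each lung comparison were called. The filter drops every member called in a lung comparison over all genes, except LCE2A. The cause of the other moves was not tested. The share of all genes called moved with the setting too: for lung against parental it was 30.1% in the main fit and 41.4% without parental array 4. For most other settings that share is not given, so the member counts here and above are not read as a result about the members.

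Reversed signs were all in uncalled genes. In liver against parental, the brightest row gave 0.075 for FLG2, -0.092 for LCE3B, -0.10 for IVL and 0.15 for LOR. In lung against parental, LOR gave 0.0029 with the median of rows, 0.075 with the brightest row, 0.014 with the replicate block and also without parental array 4, and -0.12 to 0.017 when an array was left out; IVL gave -0.26 to 0.23, positive without lung array 3. In lung against liver, IVL gave -0.37 to 0.12 when an array was left out, and LOR -0.015 to 0.14, with -0.073 from the brightest row and -0.17 with the split.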
